A study of Mus musculus with 8 samples.

Results

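The genes described here build and run the mitotic spindle. These 46 genes of G2 and M phase, out of 32728 genes in the table of counts, were chosen by name for their function. They were chosen with earlier results of these data known, so their counts beside shares of all genes are descriptions only. They comprise 6 genes of mitotic entry, 5 mitotic kinases, 3 genes of the spindle checkpoint, 3 subunits of the chromosomal passenger complex, 8 genes of the centromere and kinetochore, 5 kinesin motors, 6 other proteins of spindle microtubules, 4 genes of cytokinesis, 4 genes of anaphase and cyclin destruction and 2 genes of mitotic chromosomes. All 46 passed the filter on low counts, with 418 counts in the lowest library for Pttg1, the fewest of any member.

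The samples were colon cancer organoids from C57BL/6 mice. Every group carried the same CRISPR knockouts of Apc, p53 and Smad4, so no group without these mutations served as a control. The line apsMC706 (labelled female) and the line CTO19 (labelled male) were each collected after 3 days in EM, which holds EGF beside B27, noggin and Galunisertib, or after 7 days in the medium lacking EGF (noEGF). Each of the 4 groups had 2 libraries of poly(A) RNA. The comparison of the media asked how the absence of EGF changes these organoids, but medium and days in culture cannot be told apart, and neither can line and labelled sex. The series calls the 2 lines biological replicates and does not say that the libraries of a line came from separate cultures. Within a line, and where the lines are compared with each other, p-values therefore measure only the spread between these libraries.

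Levels are in CPM (counts in 1000000, library totals corrected by TMM factors), differences between noEGF and EM are log2 fold changes with their standard error (SE), and calls are edgeR quasi-likelihood tests with an adjusted p under 0.05 over all 16719 genes tested. Library totals were 35650262 to 38953838 counts. The mitochondrial share of counts was 2.94% to 3.68% with EGF and 4.13% to 5.19% without. Summed epithelial markers (8 genes) were at 3031 to 3900 CPM, all 8 detected in every group, against 16.1 to 40.9 CPM for 8 fibroblast markers, 1.38 to 12.6 CPM for 6 immune markers and 0.37 to 1.79 CPM for 4 endothelial markers. The immune sum was higher in noEGF (7.87 to 12.6 CPM) than in EM (1.38 to 5.58 CPM), with Cd3e and Lyz2 at 0 counts in 3 of the 4 groups, and Lum, a fibroblast marker, was at 0 in 3 of the 4. The part of the mitochondrial share and of these markers in the results was not tested.

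Cells enter mitosis when Cdk1, bound to cyclin B, is activated. Aurora and polo kinases then separate the centrosomes and shape the spindle, kinetochores tie chromosomes to microtubules, and the spindle checkpoint holds back anaphase until every kinetochore is attached. The anaphase-promoting complex then destroys securin and cyclin B, and a contractile ring divides the cell. In the intestinal epithelium such transcripts mark the dividing cells of the crypt. Many of these genes are switched on together late in the cell cycle through a promoter element called the cell cycle genes homology region (CHR), bound by the MuvB complex with its subunit LIN54, and CCAAT boxes bound by NF-Y.

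RefSeq promoter windows (250 bases before to 50 after the start, build GRCm38.p6) were found for 39 of the 46 genes. The 7 without a window were Aurkb, Ccna2, Cdc25c, Incenp, Kif20a, Spc24 and Tpx2. The bases just before the start are shown for 6 genes whose levels were lower without EGF, since they hold a CHR beside CCAAT boxes, and for the member that changed least among those that were lower over both lines (Mad2l1) and the one member that was higher (Pttg1), whose windows hold neither. Capitals mark the CHR (TTTGAA, or TTCAAA on the other strand) and the CCAAT box (CCAAT, or ATTGG on the other strand), each written 5′ to 3′ on the strand of the gene.
Cdk1 (chr10:69352913-69353032, minus strand): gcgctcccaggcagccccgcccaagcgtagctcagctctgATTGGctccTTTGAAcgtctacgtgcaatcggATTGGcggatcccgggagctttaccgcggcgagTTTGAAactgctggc
Cdc20 (chr4:118437344-118437463, minus strand): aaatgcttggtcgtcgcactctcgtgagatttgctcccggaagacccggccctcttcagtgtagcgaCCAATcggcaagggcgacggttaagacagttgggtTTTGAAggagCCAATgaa
Espl1 (chr15:102296173-102296292, plus strand): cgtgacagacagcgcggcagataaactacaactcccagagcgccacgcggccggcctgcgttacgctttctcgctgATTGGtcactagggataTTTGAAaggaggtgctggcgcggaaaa
Kif11 (chr19:37376262-37376381, plus strand): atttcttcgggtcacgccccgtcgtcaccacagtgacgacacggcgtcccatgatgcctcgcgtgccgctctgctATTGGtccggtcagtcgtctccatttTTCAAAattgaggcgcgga
Top2a (chr11:99024190-99024309, minus strand): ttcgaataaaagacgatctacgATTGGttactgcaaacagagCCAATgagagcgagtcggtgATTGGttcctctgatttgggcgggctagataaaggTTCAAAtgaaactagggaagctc
Mki67 (chr7:135716380-135716579, minus strand): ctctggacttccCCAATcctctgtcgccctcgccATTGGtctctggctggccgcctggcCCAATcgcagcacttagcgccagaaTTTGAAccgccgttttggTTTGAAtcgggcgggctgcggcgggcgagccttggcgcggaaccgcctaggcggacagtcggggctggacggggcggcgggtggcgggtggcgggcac
Mad2l1 (chr6:66535101-66535220, plus strand): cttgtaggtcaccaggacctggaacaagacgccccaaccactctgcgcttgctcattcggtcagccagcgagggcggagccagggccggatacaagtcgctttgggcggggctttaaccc
Pttg1 (chr11:43425982-43426101, minus strand): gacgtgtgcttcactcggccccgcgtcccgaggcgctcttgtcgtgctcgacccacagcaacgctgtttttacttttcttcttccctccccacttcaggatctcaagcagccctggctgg

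A CHR was found on either strand in 28 of 39 members (71.8%), against 20.2% of 27025 genes with a window. A CCAAT box was found in 28 of 39 members (71.8%) and in 41.1% of all genes, and both in 1 window in 23 of 39 (59.0%) against 8.0%. In 12 of 39 members (30.8%), among them Cdk1, Cdc20, Kif11, Top2a and Mki67, a CCAAT box began 20 to 40 bases before a CHR, against 1.01% of all genes. This spacing was chosen after the windows were seen. The E2F motif searched (TTTGGCGC or TTTCCCGC) was in 0 of 39 members, in 10 of 25 S phase genes and in 1.8% of all genes. Among 110 other genes of mitosis, a CHR was in 34.5%, a CCAAT box in 56.4% and the E2F motif in 13.6%. Among the 25 S phase genes a CHR was in 16.0% and a CCAAT box in 64.0%, the latter share not far below that of the members. Neither CHR nor CCAAT was found in 6 of 39 members (15.4%, all genes 47.7%), which were Birc5, Mad2l1, Nuf2, Nusap1, Pttg1 and Tacc3. They included the strongest response over both lines (Birc5), the 2 smallest of those that were lower (Mad2l1 and Nusap1) and the only rise (Pttg1). A CHR shared bases with a CCAAT box in 1 of 39 members (Cdca8) and in 0.16% of all genes. A match is a description of letters and no evidence of binding, and a window without one says only that these letters are not in it.

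**Figure D1:**
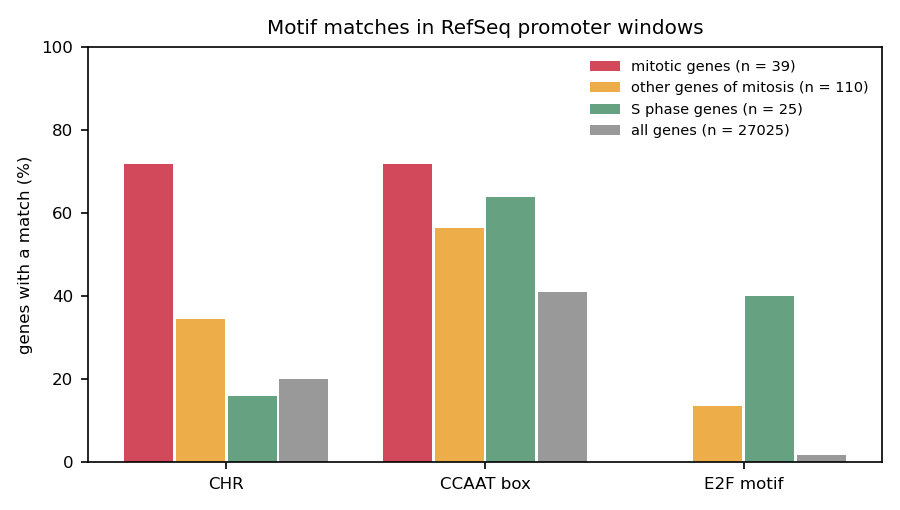
Share of genes (%) with at least 1 match to each motif in the RefSeq promoter window, for the mitotic genes, other genes of mitosis, S phase genes and all genes (n in the key). The CHR bar of the mitotic genes stands at 71.8% and that of all genes at 20.2%. The E2F motif searched (TTTGGCGC or TTTCCCGC) was in 0 of the 39 mitotic genes with a window.

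Nearly all of the 46 chosen genes were lower in noEGF than in EM. Over both lines 45 of 46 genes were lower in noEGF (23.3% of all genes tested were), and 1, Pttg1, was higher (all genes 25.5%). Of the 46, 25 were called lower with a fold of at least 2, against 4.1% of all genes. The median log2 fold change was -1.01 over the 46 genes and 0.03 over all genes tested. These counts treat the 8 libraries as independent. With libraries summed to 1 per group, edgeR called 0 of the 46 genes and 0 of all genes. At an unadjusted p under 0.05 were 43 members, but all genes were not counted at that cutoff, so 43 has no background to be read against. The summed level of the 46 genes was 8573 and 8685 CPM in the apsMC706 EM libraries and 3522 and 3570 CPM in apsMC706 noEGF, and 6937 and 6601 CPM in CTO19 EM and 4215 and 3949 CPM in CTO19 noEGF. The 4 noEGF libraries lay below the 4 EM libraries, at 41.1% of the EM level in apsMC706 and 60.3% in CTO19. In bulk RNA, fewer cells in mitosis and less of these transcripts per cell cannot be told apart.

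Both lines showed the decrease, at different sizes. In apsMC706, 45 of 46 genes were lower (all genes 33.1%) and 40 of 46 by at least 2-fold (6.9%), with a median of -1.30, and Pttg1 was the 1 gene higher (34.1%). In CTO19, 45 of 46 were lower (33.3%) and 4 of 46 by at least 2-fold (4.92%), with a median of -0.71, and again Pttg1 was the 1 higher (34.7%). The 4 were Birc5, Anln, Aurka and Ube2c. In both lines the noEGF libraries lay wholly below the EM libraries for 45 of the 46 genes and wholly above for Pttg1. Of all genes tested, 40.9% lay below and 42.8% above in apsMC706, and 40.9% below and 42.2% above in CTO19, so this separation alone is common with 2 libraries a group.

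**Figure D2:**
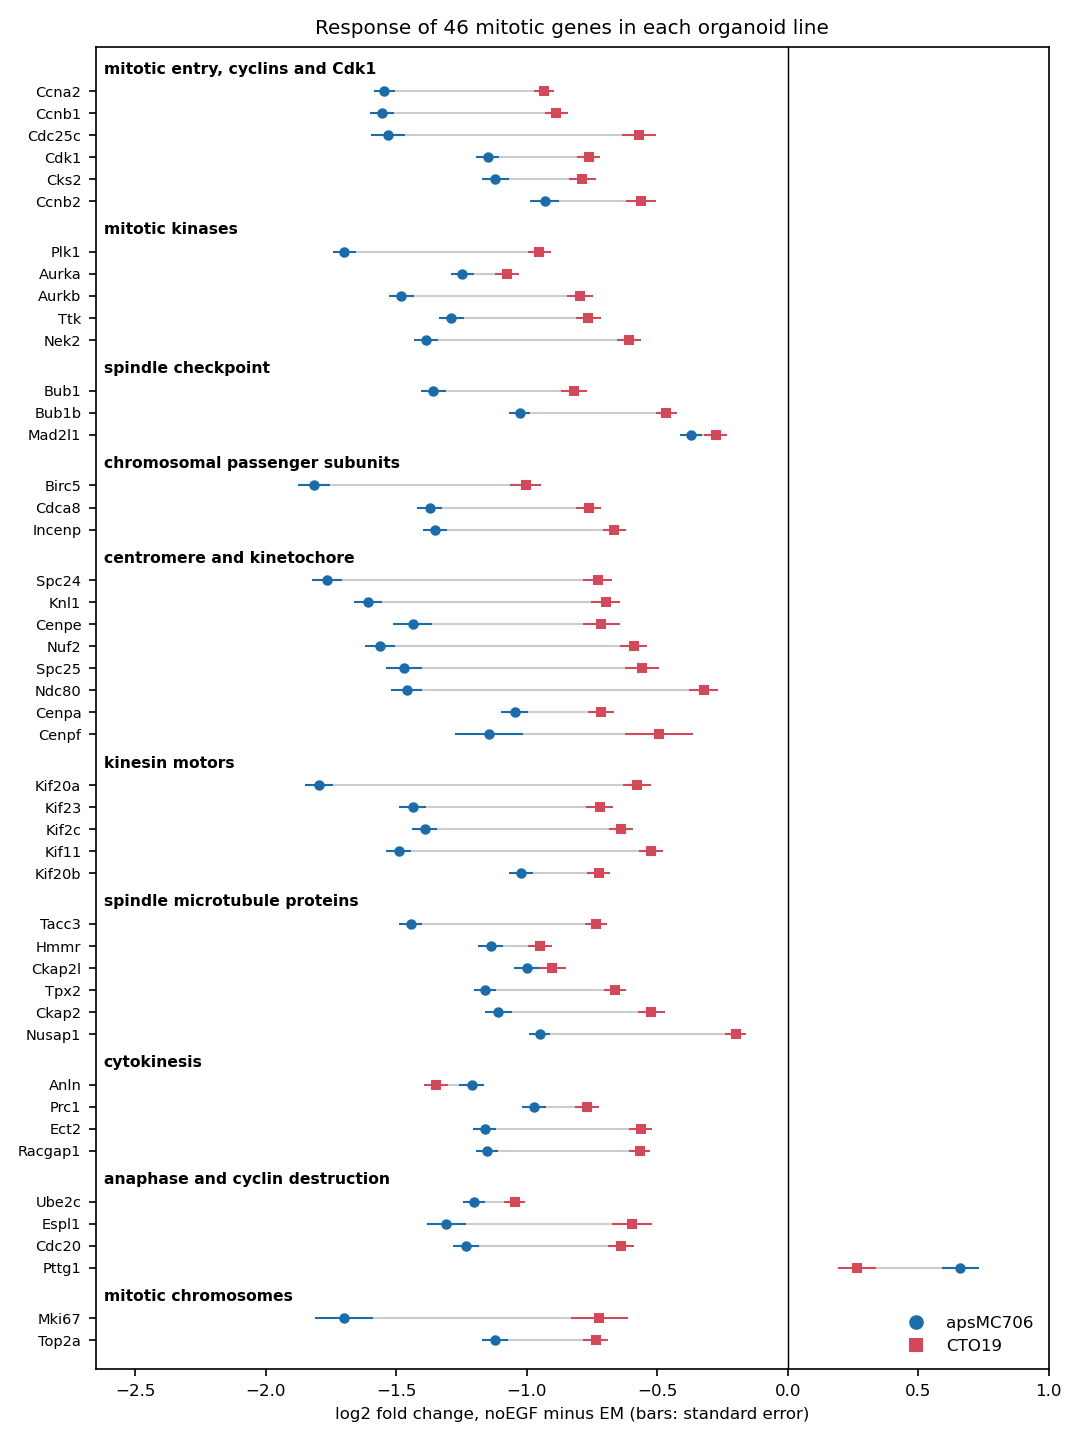
Log2 fold change between noEGF and EM for each of the 46 genes in apsMC706 (blue circles) and CTO19 (red squares), grouped by role, with bars for the standard error. The blue points lie farther from 0 in every gene but Anln, and Pttg1 is the only gene to the right of 0.

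Genes of mitotic entry were all lower in noEGF in both lines (6 of 6, medians -1.34 in apsMC706 and -0.77 in CTO19). Ccna2 encodes cyclin A, which acts from S phase into early mitosis. It was at 355 and 363 CPM in apsMC706 EM and at 122 and 124 in apsMC706 noEGF, and at 246 and 246 in CTO19 EM and at 133 and 125 in CTO19 noEGF. This was the largest decrease of the group, -1.24 over both lines (SE 0.13, edgeR adjusted p = 0.000353), and the noEGF libraries of both lines met at about the same level. Ccnb1, the main mitotic cyclin, was at 288 and 293 CPM in apsMC706 EM and 97.7 and 99.7 in noEGF, and at 214 and 213 in CTO19 EM and 121 and 110 in noEGF, so that the line that was higher in EM was the lower one in noEGF. Its value is uncertain, since the counting could split reads among it and 3 near-identical copies. Ccnb1-ps, Gm12856 and Gm8416 had counts of their own that came to 47.9%, 35.1% and 27.7% of the number counted for Ccnb1. The copies had log2 fold changes of -1.27, -1.25 and -1.26 over both lines, beside -1.22 for Ccnb1.

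The partner kinase Cdk1 was at 209 and 215 CPM in apsMC706 EM and 93.4 and 97.5 in noEGF, and at 153 and 163 in CTO19 EM and 94.9 and 91.8 in noEGF (-0.96 over both lines, SE 0.09, edgeR adjusted p = 0.00025). Like Ccna2, it ended near 1 level in noEGF. The other B-type cyclin, Ccnb2, changed least of the group. It was at 146 and 146 CPM in apsMC706 EM and 74.0 and 79.1 in noEGF, and at 91.8 and 103 in CTO19 EM and 68.1 and 63.7 in noEGF (-0.75, SE 0.09, edgeR adjusted p = 0.000675). Per exon length, Ccnb2 was at 95.4 RPKM (CPM over the exon length in kilobases) in apsMC706 EM, above Ccnb1 at 68.8 and Cdk1 at 42.9. The order of the cyclins depended on the length used, since over the longest transcript Ccnb1 was at 117 RPKM and Ccnb2 at 95.4. Cdc25c, the phosphatase that activates Cdk1, was at 41.3 and 40.8 CPM in apsMC706 EM and 13.9 and 14.6 in noEGF, and at 30.6 and 30.4 in CTO19 EM and 21.8 and 19.2 in noEGF. The media did not overlap in either line, and its response was -1.53 in apsMC706 and -0.57 in CTO19. Cks2, a small subunit of Cdk complexes, fell by 1.12 on the log2 scale in apsMC706 and by 0.79 in CTO19.

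The 5 mitotic kinases were lower in both lines, with medians of -1.39 in apsMC706 and -0.80 in CTO19. Plk1, the polo kinase of centrosome maturation and spindle assembly (ENSMUSG00000030867, chromosome 7, 122159439 to 122169873 in mm10), had the largest decrease of them over both lines and in apsMC706. It was at 169 and 167 CPM in apsMC706 EM and 49.8 and 53.6 in noEGF, and at 136 and 136 in CTO19 EM and 72.1 and 68.9 in noEGF, a decrease of 3.24-fold in apsMC706 and 1.93-fold in CTO19. The log2 fold change was -1.32 over both lines (SE 0.15, edgeR adjusted p = 0.000515). Aurka, the Aurora kinase of the spindle poles, had a smaller difference between the lines (0.17) and the largest decrease of the kinases in CTO19. Its level was 149 and 153 CPM in apsMC706 EM and 63.6 and 63.6 in noEGF, and 86.5 and 91.0 in CTO19 EM and 43.3 and 41.0 in noEGF, so the CTO19 libraries lay below those of apsMC706 in each medium. The responses were -1.25 and -1.07. Nek2, a kinase that splits the centrosome pair, was at 151 and 156 CPM in apsMC706 EM and 57.5 and 59.9 in noEGF, but only at 73.6 and 76.9 in CTO19 EM and 50.6 and 48.1 in noEGF. It had the widest gap between the lines in EM of all 46 genes. Aurkb, the Aurora kinase of the passenger complex, and Ttk, the kinase that starts checkpoint signalling, were at -1.14 and -1.03 over both lines.

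Of the 3 checkpoint genes, Bub1 and Bub1b were well below their EM level and Mad2l1 only slightly. Bub1, the kinase that recruits checkpoint proteins to kinetochores, was at 166 and 167 CPM in apsMC706 EM and 64.5 and 65.6 in noEGF, and at 101 and 104 in CTO19 EM and 61.2 and 54.8 in noEGF (-1.09 over both lines, SE 0.11, edgeR adjusted p = 0.00039). Mad2l1, the protein that inhibits Cdc20, was at 150 and 154 CPM in apsMC706 EM and 121 and 115 in noEGF, and at 122 and 129 in CTO19 EM and 103 and 104 in noEGF. Its decrease was the smallest of the 45 over both lines (-0.32, SE 0.05, edgeR adjusted p = 0.00209), although the libraries of the media did not overlap in either line. As a result it took 1.76% of the summed level of the 46 genes in apsMC706 EM and 3.32% in noEGF. Bub1b, the checkpoint pseudokinase BubR1, was at -1.03 in apsMC706 and -0.46 in CTO19, and Bub3, its partner from the wider checkpoint list, at -0.58 over both lines (edgeR adjusted p = 0.00112).

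**Figure D3:**
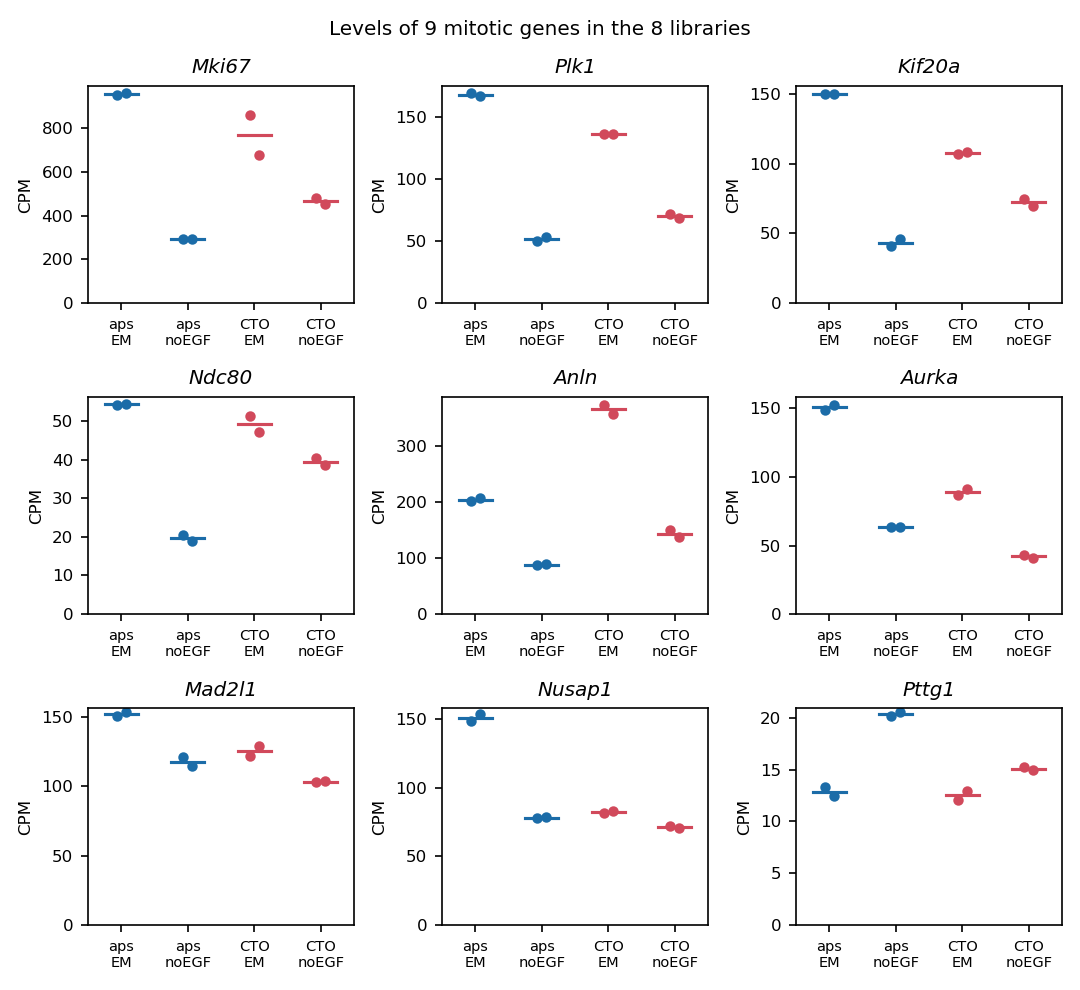
CPM of 9 mitotic genes in each library (points) with the group mean (line), for apsMC706 (aps, blue) and CTO19 (CTO, red) in EM and noEGF. Mki67, Plk1, Kif20a and Ndc80 cross between the lines, Anln and Aurka keep their order, Mad2l1 and Nusap1 change little in CTO19 and Pttg1 is higher in noEGF.

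The chromosomal passenger complex brings Aurora B to centromeres, where it corrects faulty attachments, and then to the midzone. Birc5 (survivin) had the largest decrease of all 46 genes over both lines (-1.41, SE 0.17, edgeR adjusted p = 0.000609). It was at 116 and 109 CPM in apsMC706 EM and 32.4 and 31.5 in noEGF, and at 92.7 and 93.4 in CTO19 EM and 49.8 and 43.1 in noEGF. The scaffold Incenp was at 194 and 201 CPM in apsMC706 EM and 77.4 and 77.6 in noEGF, and at 177 and 166 in CTO19 EM and 112 and 105 in noEGF (-1.01). Cdca8 (borealin) was at -1.37 in apsMC706 and -0.76 in CTO19. Per exon length the 4 subunits were at 22.3 to 45.6 RPKM in apsMC706 EM and 8.61 to 17.9 in noEGF, and at 18.5 to 39.6 RPKM in CTO19 EM and 10.9 to 25 in noEGF. Incenp was the highest of the 4 in each group and Cdca8 the lowest over all exons, but over the longest transcript Aurkb was above Incenp in apsMC706 (68.7 and 57.3 RPKM in EM) and Birc5 was the lowest in each group.

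The 8 chosen kinetochore genes had the largest median difference between the lines of the 10 roles (0.91), a ranking that was not tested. The wider kinetochore did not share that size. The median difference was 0.58 for 14 other genes of the Mis12 and Ska complexes and the corona. It was 0.75 for 19 other centromere genes, and 0.96 for 34 S phase genes. The 8 chosen genes were all lower in both lines, with a median of -1.46 in apsMC706 and -0.64 in CTO19. The Ndc80 complex, a rod of 4 subunits, is the main coupler of the kinetochore to microtubules. Ndc80 itself (ENSMUSG00000024056, chromosome 17, 71496100 to 71526857 in mm10) was at 54.3 and 54.5 CPM in apsMC706 EM and 20.6 and 19 in noEGF, and at 51.3 and 47.4 in CTO19 EM and 40.4 and 38.5 in noEGF. The lines thus started close together in EM and lay apart in noEGF. Its partner Nuf2 was at 56.3 and 56.3 CPM in apsMC706 EM and 19.7 and 18.4 in noEGF, and at 57.8 and 58.2 in CTO19 EM and 40.3 and 36.8 in noEGF. Spc24 was at 44.9 and 43.7 CPM in apsMC706 EM and 12.9 and 13.2 in noEGF, and at 30.3 and 30.6 in CTO19 EM and 18.1 and 18.6 in noEGF. It had the largest decrease of the group over both lines (-1.25, SE 0.20, edgeR adjusted p = 0.00236), and Spc25, at -1.47 in apsMC706 and -0.56 in CTO19, resembled Ndc80 and Nuf2. Per exon length the 4 subunits stood at 3.01 to 5.06 RPKM in apsMC706 noEGF and at 6.08 to 7.44 RPKM in CTO19 noEGF, with no overlap between the lines, whereas in EM their ranges were 8.38 to 17.2 and 7.60 to 11.8.

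Knl1, the scaffold that recruits Bub1, was at -1.61 in apsMC706 and -0.70 in CTO19. Cenpe, the kinesin that carries chromosomes to the metaphase plate, was at -1.44 and -0.71, and Cenpa, the histone variant that marks centromeres, at -1.05 and -0.72. Cenpf, a large kinetochore and nuclear matrix protein, had the smallest decrease of the group over both lines (-0.82) and the widest spread between replicates. In CTO19 alone Ndc80 changed less, and in apsMC706 alone Cenpa did. Cenpf was at 211 and 225 CPM in apsMC706 EM and 99.0 and 98.1 in noEGF, and at 162 and 124 in CTO19 EM and 105 and 98.3 in noEGF. The call in CTO19 (-0.49, SE 0.13, edgeR adjusted p = 0.0199) was lost without a filter on low counts (-0.51) and on leaving out CTO19 noEGF replicate 1 (-0.53) or replicate 2 (-0.43), and leaving out CTO19 EM replicate 1 took the value to -0.29. In CTO19 EM the second library was lower for long transcripts: across the 8 members with a transcript of at least 5000 bases, Cenpf and Mki67 among them, the log2 ratio of replicate 2 to replicate 1 had a median of -0.19 and was below 0 in 7, against a median of 0.02 for the 11 members under 2500 bases. The part of transcript length in the responses of CTO19 was not tested.

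Kinesin motors were lower throughout (5 of 5 in each line, medians -1.44 in apsMC706 and -0.64 in CTO19). Kif20a, the motor that carries the passenger complex to the midzone, was at 150 and 150 CPM in apsMC706 EM and 40.7 and 45.8 in noEGF, and at 107 and 108 in CTO19 EM and 74.7 and 69.9 in noEGF. The decrease was 3.47-fold in apsMC706 and 1.49-fold in CTO19 (-1.19 over both lines, SE 0.24, edgeR adjusted p = 0.00581). An antisense neighbour, Cdc23, shares 29.3% of the exon bases of Kif20a, and since the library kit does not mark the strand their reads cannot be told apart there. Cdc23, a subunit of the anaphase-promoting complex, had log2 fold changes of -0.48 and -0.28 in the lines. Kif11, the bipolar motor that pushes spindle poles apart, was at 240 and 245 CPM in apsMC706 EM and 88.4 and 84.1 in noEGF, and at 171 and 164 in CTO19 EM and 121 and 112 in noEGF. The response was -1.49 in apsMC706 and -0.52 in CTO19. Kif20b, a motor of late cytokinesis, changed least among them over both lines, though not in CTO19, where its decrease was among the largest of the 5 (-0.72). It was at 141 and 141 CPM in apsMC706 EM and 69.5 and 69.1 in noEGF, and at 125 and 120 in CTO19 EM and 76.7 and 71.7 in noEGF (-0.87, SE 0.07, edgeR adjusted p = 0.000182). The microtubule depolymerase Kif2c and the midzone motor Kif23 were at -1.39 and -1.44 in apsMC706 and at -0.64 and -0.72 in CTO19.

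Among the spindle microtubule proteins, Tacc3 and Nusap1 marked the ends of the range over both lines. Tacc3, which strengthens kinetochore fibres, was at 230 and 238 CPM in apsMC706 EM and 83.9 and 88.3 in noEGF, and at 213 and 216 in CTO19 EM and 132 and 126 in noEGF (-1.09 over both lines, SE 0.14, edgeR adjusted p = 0.00095). Nusap1, a microtubule bundler, was at 149 and 154 CPM in apsMC706 EM and 78.2 and 78.5 in noEGF, but at 81.7 and 82.8 in CTO19 EM and 72.4 and 70.9 in noEGF. In CTO19 its level in EM was already close to that of apsMC706 without EGF, and its response there (-0.20, SE 0.04, edgeR adjusted p = 0.0006) was the smallest decrease of any member in either line. Tpx2, the activator of Aurora A on the spindle, was at -1.16 in apsMC706 and -0.66 in CTO19, and Ckap2 was at -1.11 and -0.52. Hmmr and Ckap2l, which both act on spindle microtubules, were among those with the smallest differences between the lines (-1.14 and -0.95 for Hmmr, -1.0 and -0.90 for Ckap2l).

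For cytokinesis, the 4 genes were lower in both lines (medians -1.16 and -0.67). Anln, a scaffold of the contractile ring, had the largest excess in CTO19 of the 46 genes in EM. It was at 202 and 207 CPM in apsMC706 EM and 87.6 and 88.8 in noEGF, and at 373 and 357 in CTO19 EM and 150 and 137 in noEGF. Both CTO19 groups lay above the matching apsMC706 group, and the decrease was 2.32-fold in apsMC706 and 2.54-fold in CTO19. Racgap1, the partner of Kif23 in the midzone complex centralspindlin, was at 219 and 221 CPM in apsMC706 EM and 99.1 and 99.0 in noEGF, and at 151 and 153 in CTO19 EM and 107 and 99.1 in noEGF (-0.86, SE 0.12, edgeR adjusted p = 0.00122). Per exon length Racgap1 and Kif23 were at 31.1 and 22.2 RPKM in apsMC706 EM, but over the longest transcript the order was reversed (49.2 and 51.7 RPKM). Their order is therefore not settled by these data. Ect2, the exchange factor that activates RhoA at the midzone, was at -1.16 and -0.56, and Prc1, the crosslinker of midzone microtubules, at -0.97 and -0.77.

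The genes of anaphase and cyclin destruction were the only group with a member moving the other way. Cdc20, the activator of the anaphase-promoting complex, was at 195 and 202 CPM in apsMC706 EM and 82.0 and 87.1 in noEGF, and at 125 and 138 in CTO19 EM and 85.4 and 83.7 in noEGF (-0.94 over both lines, SE 0.12, edgeR adjusted p = 0.000972). Ube2c, its ubiquitin-conjugating enzyme, was at 234 and 242 CPM in apsMC706 EM and 102 and 105 in noEGF, and at 172 and 173 in CTO19 EM and 85.2 and 82.1 in noEGF (-1.12, SE 0.06, edgeR adjusted p = 4.05e-05). Both therefore dropped well below EM in each line. Separase (Espl1), the protease that cuts cohesin, was at -1.31 in apsMC706 and -0.60 in CTO19.

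Securin (Pttg1; ENSMUSG00000020415, chromosome 11, 43420250 to 43426251 in mm10), the inhibitor of separase, was higher in noEGF. It was at 13.3 and 12.4 CPM in apsMC706 EM and 20.1 and 20.5 in noEGF, and at 12.1 and 13.0 in CTO19 EM and 15.3 and 14.9 in noEGF. The increase was 0.66 in apsMC706 (edgeR adjusted p = 8.17e-07) and 0.27 in CTO19 (edgeR adjusted p = 0.0048), and 0.47 on the log2 scale over both lines (SE 0.10, edgeR adjusted p = 0.00662). The lines overlapped in EM and lay apart in noEGF. Per exon length Pttg1 was the least abundant of the 46 genes in apsMC706 EM at 6.42 RPKM and ranked 29 of 46 in apsMC706 noEGF at 10.2 RPKM (34 of 46 over the longest transcript). Cks2, at 146 RPKM, was the highest in apsMC706 EM over all exons and ranked 2 over the longest transcript, where Top2a was first.

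Mki67 and Top2a, a coat protein of mitotic chromosomes and the topoisomerase that untangles them, were both lower in each line. Mki67 (ENSMUSG00000031004, chromosome 7, 135689784 to 135716361 in mm10) was at 951 and 960 CPM in apsMC706 EM and 293 and 295 in noEGF, and at 859 and 677 in CTO19 EM and 480 and 451 in noEGF. The CTO19 EM libraries differed from each other far more than those of the other groups, and the response of CTO19 (-0.72) was -0.54 without replicate 1 and -0.88 without replicate 2 of CTO19 EM. Top2a was at 872 and 899 CPM in apsMC706 EM and 405 and 409 in noEGF, and at 699 and 640 in CTO19 EM and 418 and 386 in noEGF (-0.93 over both lines, SE 0.10, edgeR adjusted p = 0.000395). Mki67 made up 11.1% of the summed level of the 46 genes in apsMC706 EM and 8.29% in apsMC706 noEGF. In CTO19 its share was 11.3% in EM and 11.4% in noEGF.

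**Figure D4:**
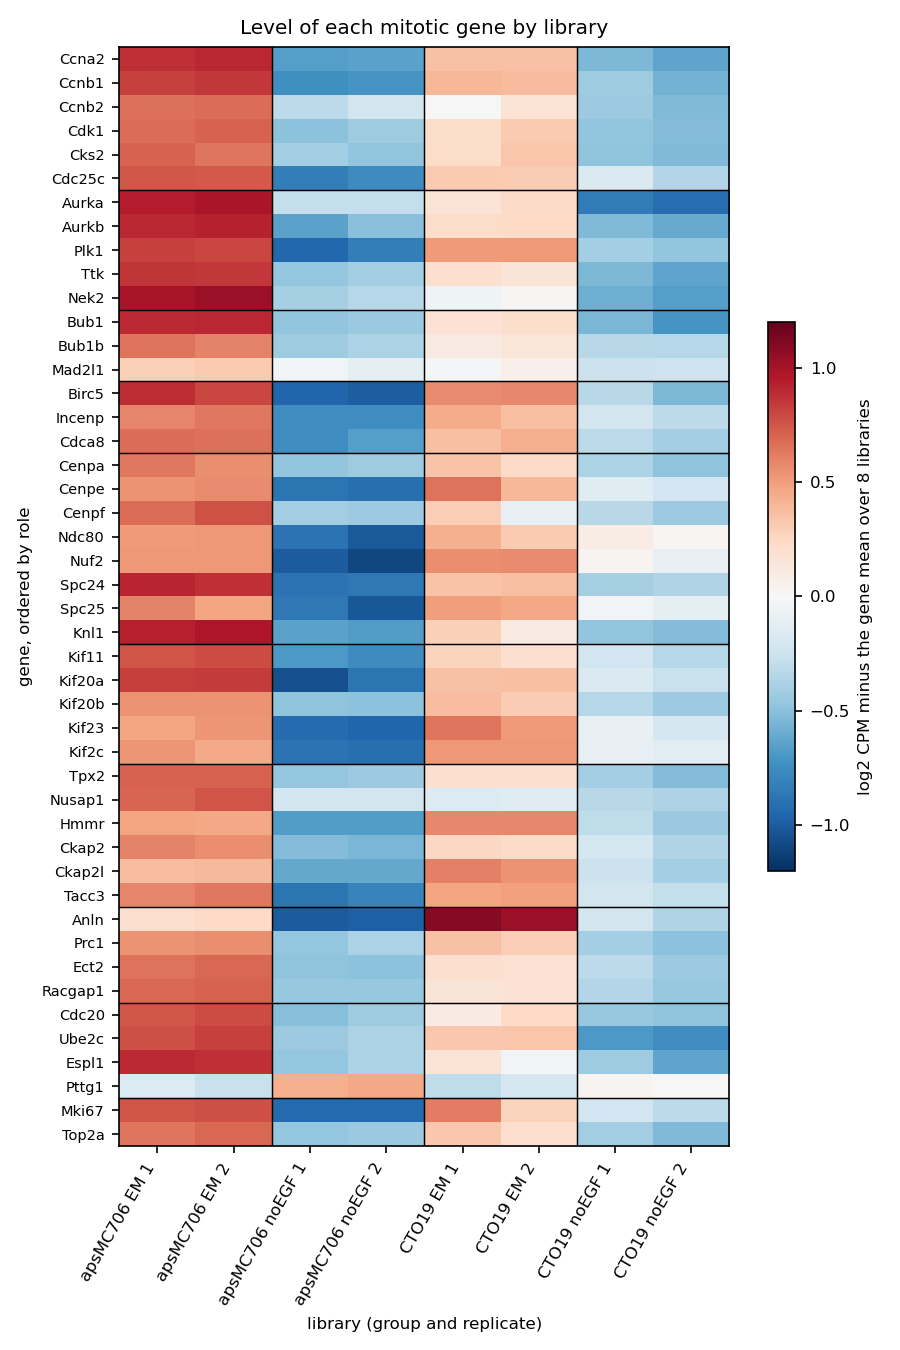
Log2 CPM of each gene minus its mean over the 8 libraries (red above, blue below), with genes in rows by role and libraries in columns. In 37 genes all EM columns are red and all noEGF columns blue, Pttg1 shows the reverse, 8 genes (Ccnb2, Nek2, Mad2l1, Cenpf, Ndc80, Nuf2, Nusap1 and Espl1) are mixed, Anln is highest in CTO19 EM, and noEGF is bluer in apsMC706 than in CTO19 for most kinetochore genes and kinesins. These patterns were not counted over all genes, of which 40.9% in each line had both noEGF libraries below both EM libraries.

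The test of whether the lines responded differently (the response of CTO19 minus that of apsMC706) found 43 of 46 genes. It sets 1 line against 1 line, with the spread between libraries as its only measure of error. In 42 the decrease was smaller in CTO19 (30.4% of all genes had a response less negative or higher in CTO19), and in 1, Pttg1, the response was lower in CTO19 (25.6%). The median difference was 0.61 over the 46 genes and 0.06 over all genes. Kif20a had the largest difference, 1.22 (SE 0.07, edgeR adjusted p = 5.54e-09), followed by Ndc80 at 1.14, Spc24 at 1.04, Mki67 at 0.98, Nuf2 at 0.97 and Kif11 at 0.97. By role the median was 0.91 for kinetochore genes, 0.75 for kinesins, 0.68 for kinases and 0.39 for cytokinesis. Pttg1 had a difference of -0.39 (SE 0.10, edgeR adjusted p = 0.00404), its rise being smaller in CTO19.

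No difference was called for Mad2l1 (0.09, SE 0.06, edgeR adjusted p = 0.211), Ckap2l (0.10, SE 0.07, adjusted p = 0.276) or Anln (-0.14, SE 0.07, adjusted p = 0.0911), which does not show that the lines responded alike. Anln was called lower in CTO19 with DESeq2 size factors (-0.19, adjusted p = 0.0254). The smallest called differences, Ube2c at 0.16, Aurka at 0.17, Hmmr at 0.19 and Prc1 at 0.20, were lost with DESeq2 size factors (0.11, 0.12, 0.14 and 0.15).

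Set side by side, the lines traded places for 15 of the 46 members, by calls that set no minimum fold. In EM, 37 of 46 genes were lower in CTO19 than in apsMC706 (33.8% of all genes) and 3 were higher (37.5%). In noEGF, 9 were lower in CTO19 (34.3%) and 23 higher (45.7%), so in noEGF the share of members higher in CTO19 was near that of all genes, whose median difference between the lines there was 0.13. The 3 genes higher in CTO19 in both media were Anln (0.84 in EM and 0.70 in noEGF), Ckap2l (0.19 and 0.29) and Hmmr (0.11 and 0.29), against 30.1% of all genes, and the EM call of Hmmr was lost with DESeq2 size factors and the DESeq2 Wald test. The 8 genes lower in CTO19 in both media (22.1% of all genes) were Ccnb2, Aurka, Ttk, Nek2, Bub1, Mad2l1, Nusap1 and Ube2c, with Nek2 the lowest in EM (-1.03) and Aurka the lowest in noEGF (-0.59).

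Another 15 genes were lower in CTO19 in EM and higher in noEGF (6.06% of all genes): Ccnb1, Cdc25c, Plk1, Birc5, Incenp, Cdca8, Ndc80, Spc24, Knl1, Kif11, Kif20a, Ckap2, Tacc3, Ect2 and Mki67. Kif20a went from -0.48 in EM to 0.74 in noEGF, and the noEGF calls of Knl1 and Ect2 were lost with DESeq2 size factors, with the Wald test and with either other filter. The EM call of Ndc80 was lost with the stricter filter and the Wald test, and that of Mki67 with no filter. In the test against a 1.5-fold change, only Knl1 of the 15 was called in EM, and only Kif20a and Ndc80 in noEGF. That test called 33.1% of all genes in EM and 43.6% in noEGF. In 5 genes (Cenpe, Nuf2, Spc25, Kif23 and Kif2c) no difference between the lines was called in EM, and CTO19 was higher in noEGF by 0.70 to 1.01 (9.49% of all genes were in this class). A further 14 were lower in CTO19 in EM with no call in noEGF (5.57% of all genes), Cdk1 (-0.42 and -0.03) and Top2a (-0.40 and -0.02) among them. With no filter on low counts, 15 members in place of 9 were lower in CTO19 in noEGF. Of all genes 6635 of 24981 were lower without the filter, and 34.3% with it. The members gained were Cdk1, Top2a, Tpx2, Prc1, Cks2 and Espl1. Pttg1 was the last, at -0.04 in EM (edgeR adjusted p = 0.69) and -0.43 in noEGF, with no call in EM and lower in noEGF like 8.81% of all genes.

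**Figure D5:**
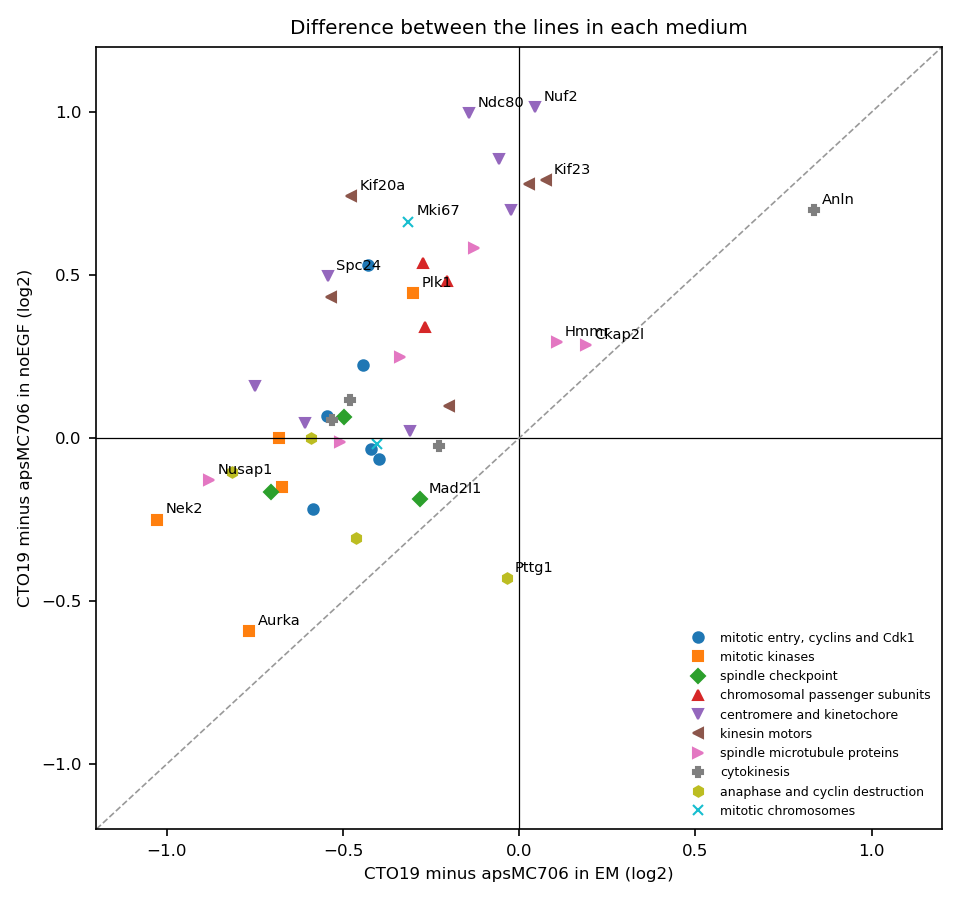
Difference between the lines (CTO19 minus apsMC706, log2) in EM on the x axis and in noEGF on the y axis, 1 point per gene with symbols by role, and a dashed line where both are equal. Points above the dashed line had a smaller decrease in CTO19. Kinetochore genes and kinesins lie highest, Anln lies alone at the right, and Pttg1 lies farthest below the line.

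The rest of the mitotic machinery was read from 128 other genes in 11 lists. Over both lines 102 of them were lower and 5 higher (Anapc2, Lin37, Septin2, Chmp4b and Chmp2a, at 0.23 to 0.46), with a median of -0.65, beside the 23.3% lower and 25.5% higher of all genes. All 7 other kinesins, all 8 condensins and all 14 genes of the Mis12 and Ska complexes and the corona were lower, with medians of -0.98, -0.82 and -0.87. Kif4 and Kif14 were at -1.05 and -1.17, the condensin core Smc4 at -0.75 and Ncapd3 at -0.65, and Zwilch and Zwint at -1.0 and -0.53. In the centromere list 17 of 19 genes were lower (Cenpi at -1.15, Cenpw at -0.95), in the centrosome list 11 of 13 (Cep55 at -1.11, Dlgap5 at -0.67), in the remaining checkpoint list 5 of 6 (Trip13 at -1.35, Sgo2a at -0.97), and among regulators of entry 10 of 11 (Cdc25b at -0.73, Bora at -0.68, Wee1 at -0.46).

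Medians were smaller in the remaining lists. Of the anaphase-promoting complex, 10 of 15 genes were lower and 1 higher (median -0.37), with the chain-extending enzyme Ube2s at -0.94 and the core subunit Cdc27 at -0.49. Cohesin had 7 of 10 lower (median -0.42), with its activator Cdca5 at -0.96 and Pds5b at -0.52. Of the contractile ring and abscission list, 5 of 13 were lower and 3 higher (median -0.11), beside 23.3% and 25.5% of all genes. In apsMC706 alone 5 were lower and 4 higher (all genes 33.1% and 34.1%), and in CTO19 8 and 4 (33.3% and 34.7%). Over both lines Cit, the citron kinase of the midbody, was at -0.78 and Septin7 at -0.52, while Chmp4b, an ESCRT filament protein, was at 0.46. In the list of 12 genes for transcription of G2 and M phase genes, 8 were lower and 1 higher over both lines (median -0.52). Among those lower were Mybl2 (B-Myb) at -1.61, Foxm1 at -1.08, the CHR-binding subunit Lin54 at -0.95 and E2f4 at -0.65 (edgeR adjusted p = 0.000383, 0.000888, 7.31e-05 and 0.000136). In CTO19 alone 7 of the list were lower (all genes 33.3%) and 2 higher (34.7%), with a median of -0.21. Whether these changes bear on the mitotic genes was not tested.

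S phase genes, which copy the DNA before mitosis, were lower too. Of 34, 33 were lower over both lines (all genes 23.3%), all but Rfc3, at -0.37 with an edgeR adjusted p of 0.0858. The median of the 34 was -1.0 beside -1.01 for the mitotic genes. In apsMC706 the S phase median was -1.46 and the mitotic one -1.30, and in CTO19 the medians were -0.52 and -0.71. The difference between the lines was called in 34 of 34 S phase genes with a median of 0.96, against 0.61 for the mitotic genes. Whether the 2 sets differ was not tested. Of the 34 S phase genes, 22 were lower in CTO19 than in apsMC706 in EM (all genes 33.8%). In noEGF 28 of them were higher in CTO19 (all genes 45.7%). Of the 128 other genes of mitosis, 75 were lower in CTO19 in EM and 79 higher in noEGF.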

How the data were processed

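Poly(A) RNA of 8 organoid libraries was sequenced. Reads were aligned with STAR 2.7.0a to mm10, per the submitters' processing notes, and the authors deposited raw counts per gene. Not given in the sources used here were the counting program, strand setting, annotation and filters. Gene names and lengths came from GENCODE M21 (32680 of 32728 genes found), promoters from RefSeq (GRCm38.p6). Counts were tested with edgeR 4.0.16 (filterByExpr, TMM, robust two-sided quasi-likelihood tests) in R 4.3.3, with Benjamini-Hochberg adjustment over 16719 genes. The fit over both lines had line and medium as terms (residual df 5), the others 4 group means (residual df 4). RPKM used all exons of a gene. Near-identical copies (95% identity over 25% of the length) were sought with BLAST 2.17.0. Alternatives were DESeq2 1.42.0 (size factors, Wald test), other filters, a test against 1.5-fold, a replicate block, a fit lacking the line, libraries summed per group, only the libraries compared, unscaled totals, the longest transcript and each library left out. The members and lists were chosen with earlier results of these data known. Library values are printed for the extremes of each role, the 5 largest differences between the lines and a set list (Mki67, Top2a, Ccnb1, Cdk1, Aurka, Plk1, Cdc20, Anln, Cdc25c), and in other lists the 2 smallest p-values, Foxm1, Mybl2, Bub3 and Wee1 are named. Other genes named by a count of 5 or fewer were chosen after their values were seen.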

Additional observations from a re-analysis of the deposited data

Results flagged for a closer look

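In 43 of the 46 genes the change from EM to noEGF differed between the lines by the interaction test of edgeR. Such calls were common: 30.4% of all genes were called with a difference above 0 and 25.6% with one below 0. Each of the 43 is listed here by that difference (CTO19 minus apsMC706, log2), where a positive value is a smaller decrease in CTO19. Among kinesins it was 1.22 for Kif20a, 0.97 for Kif11, 0.75 for Kif2c, 0.72 for Kif23 and 0.30 for Kif20b. For centromere and kinetochore genes it was 1.14 for Ndc80, 1.04 for Spc24, 0.97 for Nuf2, 0.91 for Spc25, 0.91 for Knl1, 0.72 for Cenpe, 0.65 for Cenpf and 0.33 for Cenpa. On mitotic chromosomes the values were 0.98 for Mki67 and 0.39 for Top2a. In mitotic entry they were 0.96 for Cdc25c, 0.67 for Ccnb1, 0.61 for Ccna2, 0.39 for Cdk1, 0.37 for Ccnb2 and 0.33 for Cks2. Passenger subunits differed by 0.81 for Birc5, 0.69 for Incenp and 0.61 for Cdca8. The kinases differed by 0.78 for Nek2, 0.75 for Plk1, 0.68 for Aurkb, 0.52 for Ttk and 0.17 for Aurka. Spindle microtubule proteins had differences of 0.75 for Nusap1, 0.71 for Tacc3, 0.59 for Ckap2, 0.50 for Tpx2 and 0.19 for Hmmr. In anaphase and cyclin destruction the values were 0.71 for Espl1, 0.59 for Cdc20 and 0.16 for Ube2c. Cytokinesis genes differed by 0.60 for Ect2, 0.59 for Racgap1 and 0.20 for Prc1. In the checkpoint the values were 0.56 for Bub1b and 0.54 for Bub1. The 1 value below 0 was -0.39 for Pttg1, which rose in both lines and less in CTO19. Those for Ube2c, Aurka, Hmmr and Prc1 fall short of the threshold with another library scaling.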

How the results depend on the processing

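The direction of all 46 responses over both lines and within each line was the same under every alternative run. Lower in noEGF over both lines were 45 genes with DESeq2 size factors (3576 of all 16719 genes) and with no filter (3442 of 24981). The same 45 were lower with a stricter filter of 1 CPM in 4 libraries (2993 of 13640) and the DESeq2 Wald test (3794 of 16719). Without a line term 40 were lower (1063 of 16719), and in a test against a 1.5-fold change 33 were (3.97% of all genes). With libraries summed to 1 per group, edgeR called 0 members and 0 of all genes lower. Of the members, 43 were at an unadjusted p under 0.05, a cutoff not counted over all genes. The test against a 1.5-fold change left 44 genes lower in apsMC706 (11% of all genes), 23 lower in CTO19 (7.69%), 15 with a difference between the responses (19.1%), and 9 and 7 with a difference between the lines in EM and noEGF (33.1% and 43.6%). Leaving out 1 library reversed no response within a line, and of the differences of responses it reversed only that of Ckap2l. Calls of a difference of responses, and of a difference between the lines, varied in number with the library left out. The difference for Ckap2l (0.10) turned to -0.064 without CTO19 noEGF replicate 1 and was at most 0.13 with another library left out, and the cause was not tested. Pttg1 lost its call of higher over both lines without a line term and in the test against 1.5-fold. Without a filter, the median difference of responses over all genes moved from 0.06 to -0.06, and Ube2c, Aurka, Hmmr, Prc1 and Cenpf lost their call. The summed level was 2.43-fold lower in apsMC706 noEGF, and 2.34-fold with DESeq2 size factors. Replicate numbers did not pair the libraries (correlations of replicate differences -0.00474 to 0.0947), and with the replicate block the counts were 45, 45 and 45 genes lower over both lines and in each line, 43 with a difference of responses, and 40 and 32 between the lines, none of which differed from the counts without it. With 2 libraries per group the spread is poorly known, and the 4 called differences of 0.16 to 0.20 between the responses depended on the library scaling.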
